A study of Rattus norvegicus with 9 samples.

Results

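Hearts of spontaneously hypertensive rats (SHR) given allisartan were compared with hearts of SHR given water, over every gene of the deposited expression table. The groups compared hold 6 of the 9 libraries of the series, chosen by their group labels. The 3 libraries called treated SHR here came from SHR gavaged with allisartan for 34 weeks. The 3 libraries called untreated SHR came from SHR gavaged with 1 ml of water over the same 34 weeks. The remaining 3 libraries came from Wistar-Kyoto rats (WKY), the normotensive strain to which SHR is usually set, also given water. They are quoted here for their levels. They also enter the scaling of the libraries, the choice of tested genes and the spread behind the p-values. All groups were sampled at 48 weeks of age, so the untreated SHR and the treated SHR share strain, age and gavage. SHR is an inbred strain with inherited hypertension, and it differs from WKY at many loci besides those that raise blood pressure. The sources used here do not give the allisartan dose, the chamber of the heart or whether each library came from its own animal. The p-values therefore measure the spread between these libraries.

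Allisartan is an ester prodrug that is hydrolysed to the same active metabolite as losartan and blocks the angiotensin II type 1 receptor. Angiotensin II is cut from angiotensinogen by renin and angiotensin-converting enzyme, constricts vessels through this receptor and stimulates aldosterone release. In the heart, pressure load and angiotensin II are known to be accompanied by enlarged myocytes, by re-expression of genes of the fetal heart, by scar-forming matrix and by a turn from fatty acid oxidation. Genes of each of these programmes were described below as groups, from lists of known members.

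Expression was given as FPKM, the sequenced fragments of a gene relative to its transcript length and to the library's total, and each library was rescaled by 1 factor close to 1. Fold changes are differences of log2(FPKM + 0.5), treated SHR minus untreated SHR, which understates the change of low genes. Library depth is unknown, so a value of 0 is given only as listed at 0. Correlations of log2 values were 0.985 to 0.989 within the 2 groups and 0.961 to 0.973 between treated and untreated SHR libraries. The tissue carried the markers of ventricular muscle. The regulatory light chain Myl2 had 1797, 1520 and 1701 FPKM in treated SHR, against 1141, 1170 and 1069 FPKM in untreated SHR. The atrial light chain Myl7 had 1.30, 0 and 0.711 FPKM in treated SHR, against 1.68, 2.49 and 1.05 FPKM in untreated SHR. Atrial muscle was thus close to undetected in all 6 libraries by that marker.

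Of 11717 genes tested, 3924 (33.5%) were called at an adjusted p under 0.05 by limma with Benjamini-Hochberg adjustment. Of these, 1888 rose (16.1% of tested genes) and 2036 fell (17.4%) in treated SHR. Rising genes made up 48.1% of the calls with rescaled libraries and 38.1% with no rescaling. Most calls were small, since 2340 were under 1.5-fold and the median size of a call was 0.523 on the log2 scale. At least 2-fold changes were called upward for 142 genes (1.21%) and downward for 240 (2.05%). The 3 treated values all lay above the 3 untreated ones in 2523 tested genes (21.5%) and all below them in 2919 (24.9%). A lack of overlap was thus common, at 46.4% of tested genes, and does not by itself set a gene apart. The median over all genes was a log2 change of -0.026, so a list's count is read against shares of 16.1% and 17.4% and against that median. Of 46 list counts of 1 to 3 calls, 27 moved by more than 1.5 times when 1 library was left out, so a low count in the less common direction of a list is not firm.

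**Figure D1:**
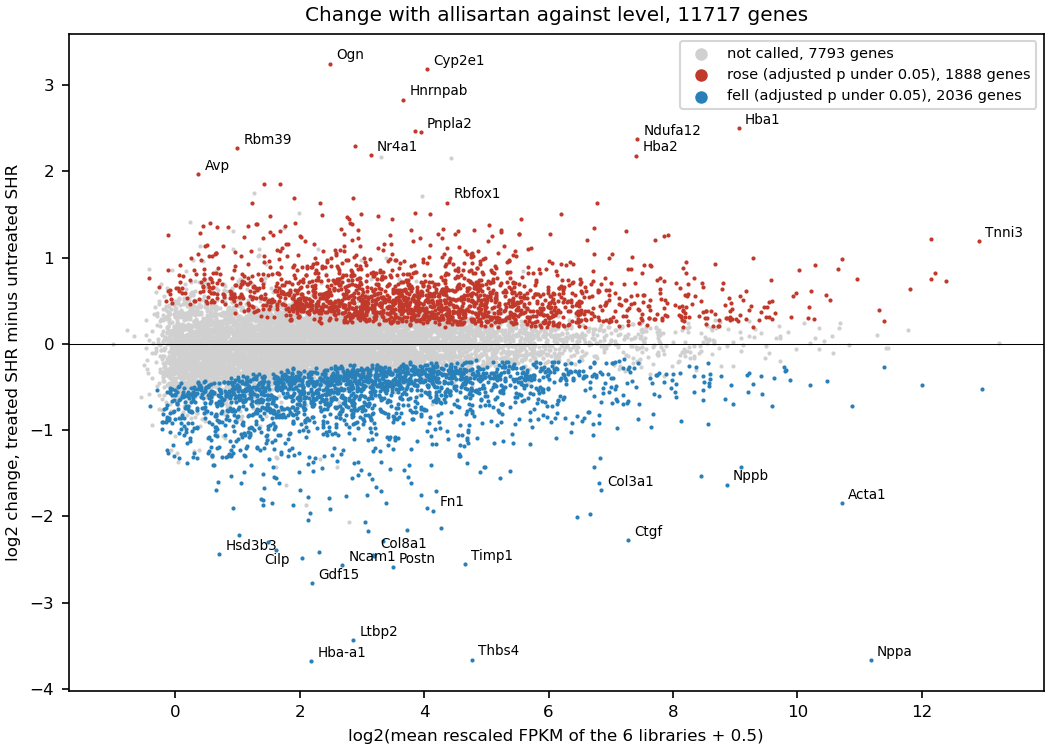
Log2 change of each of 11717 tested genes, treated SHR minus untreated SHR, on the y axis against the log2 of the mean rescaled FPKM plus 0.5 over the 6 libraries on the x axis; red points rose, blue points fell and grey points were not called. Nppa and Acta1 are the abundant genes far below the zero line, and most coloured points lie within 1 log2 unit of it.

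The natriuretic peptides and the fetal actin fell in treated hearts. Nppa encodes atrial natriuretic peptide, a hormone that ventricular muscle makes before birth and again under load. Its level was 232, 302 and 484 FPKM in treated SHR, against 3542, 3300 and 6023 FPKM in untreated SHR. Every treated library lay below every untreated one, and Nppa fell by 3.67 on the log2 scale (SE 0.268, adjusted p = 2.16e-05). WKY hearts held 1589, 2022 and 2005 FPKM, above all 3 treated SHR libraries. Nppb, which encodes the related B-type peptide, had 286, 161 and 243 FPKM in treated SHR, against 656, 651 and 786 FPKM in untreated SHR. Its groups did not overlap either, and it fell by 1.63 on the log2 scale (SE 0.185, adjusted p = 0.000164). Acta1, the skeletal muscle actin that the fetal heart also uses, had 670, 556 and 1007 FPKM in treated SHR, against 2487, 2283 and 3067 FPKM in untreated SHR. It fell by 1.84 on the log2 scale (SE 0.195, adjusted p = 0.000106), and WKY hearts held 712, 540 and 646 FPKM, within the range of treated SHR in 2 of 3 libraries.

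The promoters of Acta1 and Nppb, and those of Ctgf and Gstm2 described further on, are shown because these genes stand for the fetal, matrix and glutathione groups at a level well above the low values. Each window runs from 250 bases before to 50 bases after the start of the gene, is credited to RefSeq on build GRCr8 and is written on the gene's own strand. Capitals mark CATTCC on either strand (GGAATG on the opposite one), the core of the element bound by TEAD factors in muscle promoters, and in Acta1 also a CArG box, the element bound by serum response factor. CATTCC occurred in 4749 of 33469 RefSeq rat promoter windows of 300 bases (14.2%), and a CArG box in 548 (1.64%).
Acta1, chr19:68784145-68784444, minus strand: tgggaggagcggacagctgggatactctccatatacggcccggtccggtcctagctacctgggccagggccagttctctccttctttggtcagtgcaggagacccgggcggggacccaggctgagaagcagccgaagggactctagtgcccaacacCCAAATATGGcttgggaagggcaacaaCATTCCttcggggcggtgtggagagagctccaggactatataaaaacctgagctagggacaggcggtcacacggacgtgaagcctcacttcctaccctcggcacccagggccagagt
Nppb, chr5:163699758-163700057, plus strand: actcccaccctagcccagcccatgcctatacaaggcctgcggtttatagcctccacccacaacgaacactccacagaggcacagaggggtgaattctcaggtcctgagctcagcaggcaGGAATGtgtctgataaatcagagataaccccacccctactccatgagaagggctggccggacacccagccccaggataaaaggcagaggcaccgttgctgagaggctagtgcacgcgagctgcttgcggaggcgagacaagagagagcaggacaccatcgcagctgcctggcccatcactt
Ctgf (Ccn2 in RefSeq), chr1:22624565-22624864, minus strand: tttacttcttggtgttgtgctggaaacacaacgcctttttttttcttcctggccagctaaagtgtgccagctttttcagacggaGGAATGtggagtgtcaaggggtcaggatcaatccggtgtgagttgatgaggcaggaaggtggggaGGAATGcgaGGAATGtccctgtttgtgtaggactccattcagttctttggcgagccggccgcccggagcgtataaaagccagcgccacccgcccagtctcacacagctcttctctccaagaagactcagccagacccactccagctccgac
Gstm2, chr2:198316868-198317167, minus strand: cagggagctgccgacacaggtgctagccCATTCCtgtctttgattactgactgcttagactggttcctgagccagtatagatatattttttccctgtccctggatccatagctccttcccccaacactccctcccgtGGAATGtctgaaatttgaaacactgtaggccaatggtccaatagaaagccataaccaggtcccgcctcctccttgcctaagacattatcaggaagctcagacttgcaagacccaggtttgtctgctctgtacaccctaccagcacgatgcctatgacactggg
The Acta1 window held a CArG box beginning 94 bases before the start and CATTCC beginning 67 bases before it, and the 2 did not overlap. The Nppb window held CATTCC once on the opposite strand, the Ctgf window 3 times on the opposite strand, and the Gstm2 window once on each strand. These genes did not move alike, since Gstm2 rose, and a match describes letters in a window, not a bound site.

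Among cardiac genes of the fetal and hypertrophy programme, 17 of 30 tested members fell and 5 rose, with a median log2 change of -0.519. Falling members included cytoskeletal and stretch-related proteins of the myocyte. Xirp2, an actin-binding repeat protein of the intercalated disc, had 50.2, 50.9 and 61.9 FPKM in treated SHR, against 150, 147 and 208 FPKM in untreated SHR (log2 change -1.61, adjusted p = 3.11e-05). Flnc, the muscle filamin, had 63.6, 63.3 and 64.9 FPKM in treated SHR, against 141, 163 and 182 FPKM in untreated SHR (log2 change -1.32, adjusted p = 1.92e-05). Rcan1, a calcineurin inhibitor whose own transcription is driven by calcineurin, had 293, 244 and 242 FPKM in treated SHR, against 458, 475 and 549 FPKM in untreated SHR (log2 change -0.93, adjusted p = 9.53e-05). In each of these genes the 3 treated libraries lay below the 3 untreated ones. The 5 that rose were Myh6, Myh7b, Pln, Crip2 and Myom2, and with cyclic loess normalization 3 list members rose.

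The 2 myosin heavy chains moved in opposite directions. Myh6, the fast alpha chain, had 2256, 2257 and 2098 FPKM in treated SHR, against 1407, 1198 and 826 FPKM in untreated SHR. It rose by 0.98 on the log2 scale (SE 0.172, adjusted p = 0.00178). Myh7, the slow beta chain, had 1424, 1327 and 1498 FPKM in treated SHR, against 2204, 2378 and 2433 FPKM in untreated SHR. It fell by 0.72 on the log2 scale (SE 0.0772, adjusted p = 0.000113). WKY hearts held 3107, 3234 and 2826 FPKM of Myh7, above both SHR groups, and 1234, 1020 and 1404 FPKM of Myh6, within the range of untreated SHR.

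**Figure D2:**
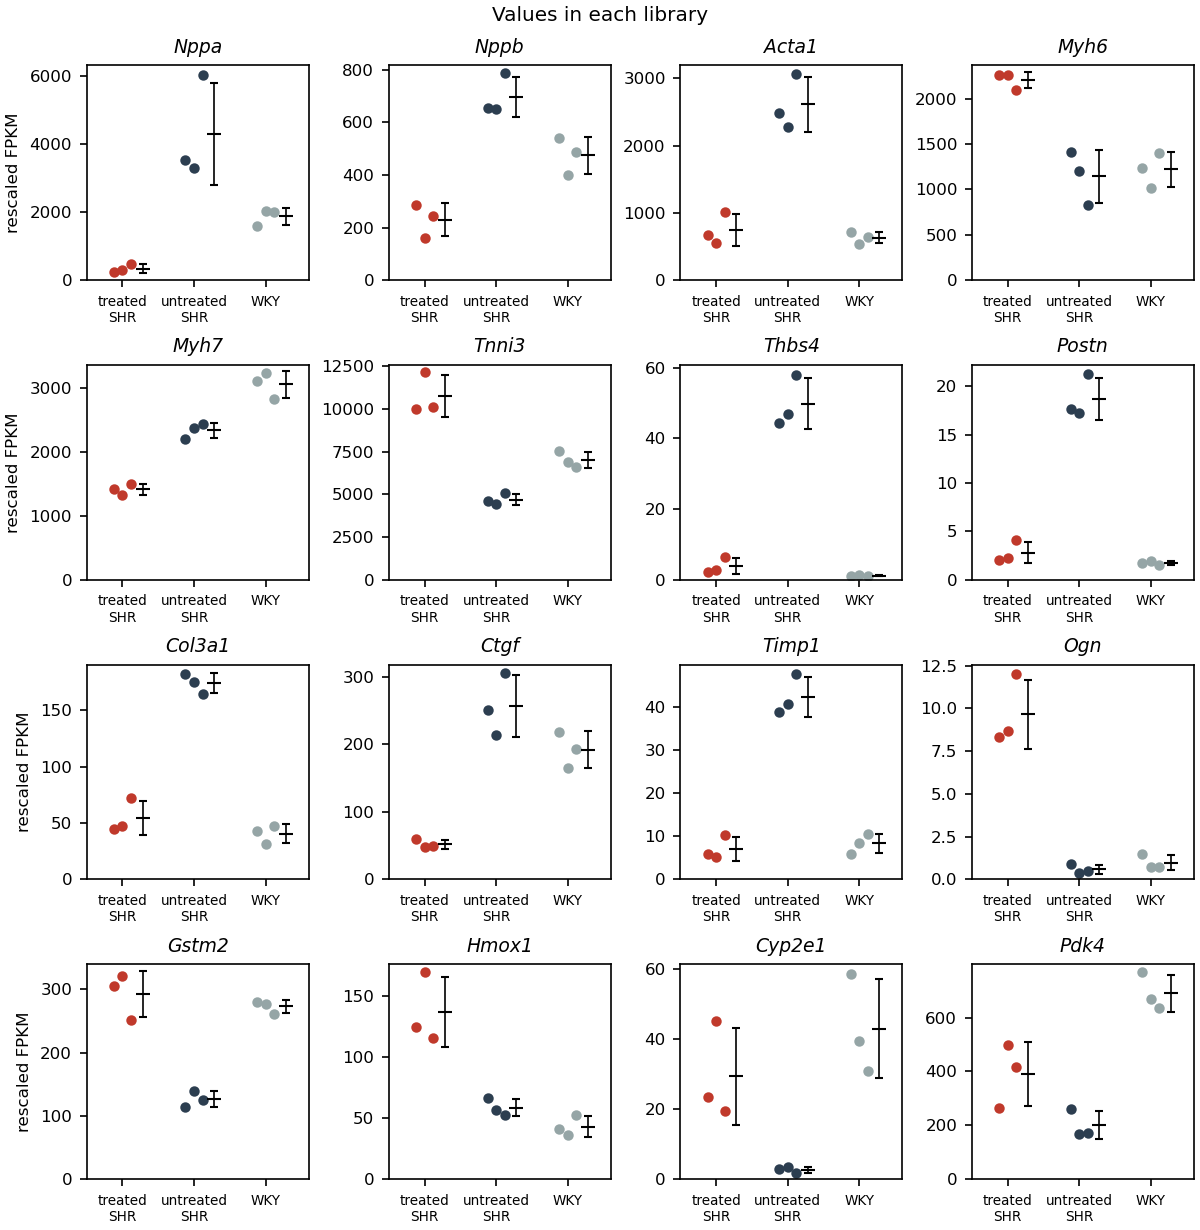
Rescaled FPKM (y axis, from 0) of 16 genes in each library, with 3 treated SHR, 3 untreated SHR and 3 WKY libraries from left to right; the black bar and whiskers beside each group are its mean and SD. Nppa, Nppb, Acta1, Thbs4, Postn, Col3a1, Ctgf and Timp1 are lower in treated than in untreated SHR without overlap, and Myh6, Tnni3, Ogn, Gstm2, Hmox1, Cyp2e1 and Pdk4 are higher.

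Sarcomere and Z-disc genes divided, with 10 of 37 tested members rising and 13 falling (median log2 change 0.031). Tnni3, cardiac troponin I, had 10011, 12193 and 10138 FPKM in treated SHR, against 4583, 4436 and 5075 FPKM in untreated SHR, which rose by 1.19 on the log2 scale (SE 0.0965, adjusted p = 2.83e-05). Myl3, the essential light chain, had 6750, 6688 and 6524 FPKM in treated SHR, against 4026, 4179 and 3844 FPKM in untreated SHR (log2 change 0.73, adjusted p = 6.55e-05). The size of the Myl3 rise depended on the setting, from 0.225 to 0.756 on the log2 scale over the alternatives. Ttn, the spring protein titin, had 19.1, 16.9 and 13.5 FPKM in treated SHR, against 41.0, 49.7 and 44.0 FPKM in untreated SHR (log2 change -1.42, adjusted p = 3.77e-05). Mybpc3, cardiac myosin-binding protein C, had 548, 532 and 570 FPKM in treated SHR, against 809, 837 and 819 FPKM in untreated SHR (log2 change -0.58, adjusted p = 8.27e-05). Genomic span moved with the change over all genes. Among the 2302 genes with the longest spans 12.4% rose and 21.2% fell (median log2 change -0.082), and among the 2302 with the shortest 19.6% rose and 15.8% fell (median log2 change 0.006). Over the alternative settings the log2 change of Ttn ran from -1.529 to -1.291, and its call was kept (adjusted p at most 0.00149 by limma). These settings included a fit with the span trend removed, which called 3929 genes and kept the call of Ttn. How much of the change of Ttn goes with span was not tested further.

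Genes of calcium handling and ion channels also divided, with 17 of 51 tested members rising and 11 falling (median log2 change 0.007). Trdn, the triadin that anchors calsequestrin to the release channel, had 53.7, 54.2 and 52.2 FPKM in treated SHR, against 24.8, 19.8 and 18.8 FPKM in untreated SHR (log2 change 1.32, SE 0.0969, adjusted p = 2.16e-05). S100a1, a calcium sensor that supports contraction, had 58.8, 56.7 and 56.3 FPKM in treated SHR, against 29.2, 28.6 and 25.9 FPKM in untreated SHR (log2 change 1.03, adjusted p = 1.92e-05). Hrc, a luminal calcium-binding protein, rose by 0.90 and Fxyd1, which encodes the pump regulator phospholemman, by 0.70 on the log2 scale (adjusted p = 2.65e-05 and 2.74e-05). All 3 treated libraries stood above all 3 untreated ones in these 4 genes. Ryr2, the release channel itself and a gene of long span, had 72.7, 70.6 and 73.0 FPKM in treated SHR, against 114, 140 and 123 FPKM in untreated SHR (log2 change -0.79, adjusted p = 0.000207). The reticulum calcium pump Atp2a2 was not called. Its levels were 1809, 1864 and 1773 FPKM in treated SHR, against 1841, 1956 and 1703 FPKM in untreated SHR (log2 change -0.01, SE 0.0673, adjusted p = 0.906). Its regulator Pln rose by 0.39 on the log2 scale (adjusted p = 0.00645). Falling channel genes included Kcne1 (log2 change -1.55, adjusted p = 0.00443), a potassium channel subunit, and Cacna1g (log2 change -1.11, adjusted p = 0.00143), a T-type calcium channel. Without untreated SHR replicate 3 the falling members numbered 7.

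Of 24 tested genes of adrenergic signalling, 8 rose and 4 fell, but the rise was not firm: without treated replicate 2, untreated replicate 2 or untreated replicate 3 the rising count was 3, and without treated replicate 1 it was 5. Without treated replicate 2 or untreated replicate 3 the falling count was 2. Maoa, a mitochondrial enzyme that degrades noradrenaline and serotonin and releases hydrogen peroxide, had 151, 148 and 246 FPKM in treated SHR, against 491, 464 and 585 FPKM in untreated SHR (log2 change -1.53, SE 0.188, adjusted p = 0.000248). WKY hearts held 172, 223 and 236 FPKM, within the range of treated SHR. Adrb1, the main cardiac beta receptor, had 14.6, 10.7 and 14.0 FPKM in treated SHR, against 7.18, 9.95 and 8.54 FPKM in untreated SHR (log2 change 0.59, adjusted p = 0.00982).

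The lists of matricellular genes and of collagens had the largest shares of falling members among the 40 lists of gene groups. Among collagens 15 of 21 tested members fell and none rose (median log2 change -0.663), against 17.4% of all tested genes that fell. By limma's unadjusted p under 0.05, 0 of the 21 were higher as well. Col3a1, a fibrillar collagen of interstitial scar, had 44.9, 46.9 and 72.0 FPKM in treated SHR, against 182, 176 and 165 FPKM in untreated SHR (log2 change -1.70, SE 0.182, adjusted p = 0.000116). Col1a1, the main fibrillar collagen, had 14.5, 16.3 and 25.2 FPKM in treated SHR, against 54.1, 57.4 and 52.1 FPKM in untreated SHR (log2 change -1.56, adjusted p = 0.000127). The basement membrane collagen Col4a2 had 28, 30.4 and 31.0 FPKM in treated SHR, against 44.0, 42.6 and 45.0 FPKM in untreated SHR (log2 change -0.55, adjusted p = 0.000208). The treated libraries were below the untreated ones in each, and treated replicate 3 was the highest of the treated group. Across the settings that left out 1 library 13 to 16 collagens fell and none rose.

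Of 43 tested matricellular, elastic and proteoglycan matrix genes 34 fell and 2 rose (median log2 change -1.008). Thbs4, a thrombospondin made by stressed muscle and scar, had 2.22, 2.78 and 6.40 FPKM in treated SHR, against 44.5, 46.9 and 58.0 FPKM in untreated SHR (log2 change -3.66, SE 0.277, adjusted p = 2.26e-05). Ltbp2, a microfibril protein, had 0.551, 0.320 and 1.53 FPKM in treated SHR, against 11.9, 10.4 and 15.9 FPKM in untreated SHR (log2 change -3.44, adjusted p = 3.41e-05). Postn, the periostin of activated fibroblasts, had 2.07, 2.26 and 4.06 FPKM in treated SHR, against 17.7, 17.3 and 21.2 FPKM in untreated SHR (log2 change -2.59, adjusted p = 2.28e-05). WKY hearts held 1.68, 1.97 and 1.49 FPKM of Postn, all below the treated SHR libraries. Fn1, fibronectin, had 5.98, 6.34 and 8.28 FPKM in treated SHR, against 24.8, 25.4 and 32.6 FPKM in untreated SHR (log2 change -1.93, adjusted p = 1.92e-05). Fbln2, an elastic fibre protein, fell by 1.61, Cilp, a cartilage matrix protein induced in cardiac scar, by 2.48, and Col8a1, a short-chain collagen, by 2.47 on the log2 scale (adjusted p = 1.91e-05, 2.16e-05 and 3.11e-05). Against these, Ogn, the small proteoglycan osteoglycin, was the gene with the largest called rise. It had 8.34, 8.65 and 12.0 FPKM in treated SHR, against 0.882, 0.384 and 0.465 FPKM in untreated SHR (log2 change 3.25, SE 0.234, adjusted p = 2.16e-05). WKY hearts held 1.48, 0.710 and 0.720 FPKM of Ogn, also below every treated library.

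Ctgf encodes connective tissue growth factor, a matricellular protein induced by TGF-beta, angiotensin II and stretch, whose promoter is printed above. It had 59.9, 47.3 and 49.3 FPKM in treated SHR, against 250, 214 and 305 FPKM in untreated SHR. The groups lay far apart, and it fell by 2.28 on the log2 scale (SE 0.142, adjusted p = 1.91e-05), and WKY hearts held 218, 165 and 193 FPKM, above all treated libraries. Cyr61, a matricellular gene of the same family, was not called, with 37.1, 19.1 and 23.0 FPKM in treated SHR, against 20.0, 24.5 and 22.6 FPKM in untreated SHR.

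Matrix proteases, their inhibitors and crosslinking enzymes fell in 22 of 38 tested members and rose in 3 (median log2 change -0.567). Timp1, an inhibitor of metalloproteinases, had 5.76, 5.20 and 10.2 FPKM in treated SHR, against 38.9, 40.6 and 47.6 FPKM in untreated SHR (log2 change -2.56, SE 0.238, adjusted p = 5.78e-05). Loxl1, which crosslinks elastin, had 4.13, 3.35 and 5.84 FPKM in treated SHR, against 20.8, 21.5 and 20.9 FPKM in untreated SHR (log2 change -2.16, adjusted p = 6.38e-05). The protease Ctsk fell by 1.75 and the inhibitor Timp2 by 0.67 on the log2 scale (adjusted p = 0.000146 and 0.000175). The 3 that rose were Timp4, P4ha1 and Serpinh1.

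In TGF-beta, activin and BMP signalling 10 of 28 tested members fell and 2 rose (median log2 change -0.181). The ligands did not move together. Tgfb2 had 6.67, 5.88 and 6.95 FPKM in treated SHR, against 25.2, 27.0 and 40.8 FPKM in untreated SHR (log2 change -2.14, SE 0.156, adjusted p = 2.16e-05). Tgfb3 fell by 0.49 on the log2 scale (adjusted p = 0.00195). Tgfb1 was not called, at 15.0, 17.1 and 17.8 FPKM in treated SHR, against 17.5, 13.7 and 15.5 FPKM in untreated SHR (log2 change 0.09, SE 0.102, adjusted p = 0.516). Gdf15, a stress-induced secreted member of the family, had 0.733, 0 and 1.79 FPKM in treated SHR, against 5.96, 6.22 and 9.92 FPKM in untreated SHR (log2 change -2.77, adjusted p = 0.000883). Among growth factors 13 of 42 tested members fell and 6 rose, and without treated replicate 1 the falling count was 8. Hbegf, which activates the EGF receptor, fell by 1.53 on the log2 scale, while Angpt1, a vessel-stabilising ligand, rose by 1.40 and Vegfa by 0.70 (adjusted p = 6.49e-05, 0.000262 and 0.000175).

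Fibroblast markers were lower in treated hearts, and beside the matrix results their values are as follows. Of 19 tested fibroblast identity and activation markers 13 fell and none rose (0 higher at limma's unadjusted p under 0.05), and their summed level was 774.5 to 873.3 FPKM in treated SHR, against 1158 to 1238 FPKM in untreated SHR and 838.4 to 911.1 FPKM in WKY. The sum of the treated libraries did not overlap that of the untreated ones. Postn and the microfibril gene Mfap5 moved most, and Tcf21, a transcription factor of resident fibroblasts, was not called, at 7.64, 6.95 and 5.03 FPKM in treated SHR, against 7.68, 6.37 and 5.96 FPKM in untreated SHR (log2 change -0.04, adjusted p = 0.88). Pdgfra, a receptor marking cardiac fibroblasts, had 5.80, 6.68 and 7.73 FPKM in treated SHR, against 9.67, 8.63 and 8.38 FPKM in untreated SHR (log2 change -0.38, adjusted p = 0.0225). In these tissue libraries fewer cells of a type and less RNA per cell cannot be told apart. In vessels, 6 of 19 tested endothelial markers rose and 3 fell (median log2 change 0.009), with 2 rising without treated replicate 2 or untreated replicate 3 and 3 with no rescaling. The summed endothelial level was 1236 to 1522 FPKM in treated SHR, against 1100.5 to 1210 FPKM in untreated SHR. Of 11 tested smooth muscle markers 2 rose and 2 fell, and of 10 tested pericyte markers 2 rose and 3 fell.

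**Figure D3:**
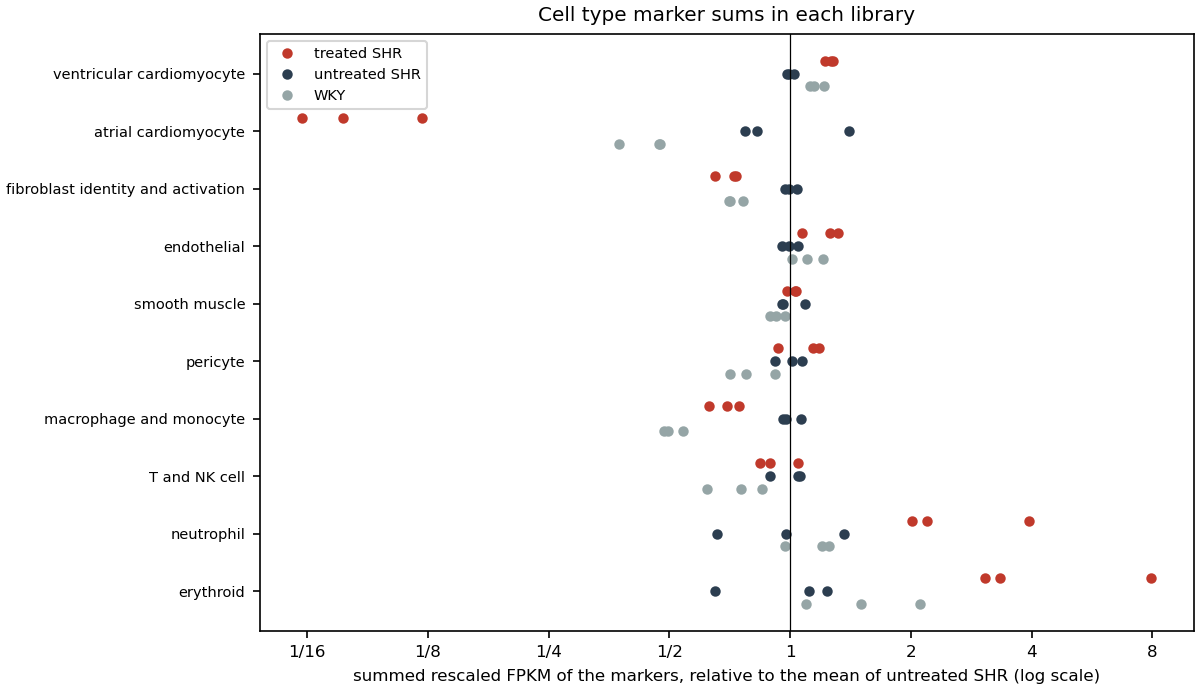
Summed rescaled FPKM of 10 marker lists in each library, divided by the mean of the 3 untreated SHR libraries (x axis, log scale), with treated SHR above untreated SHR and WKY in each row. Fibroblast, macrophage and atrial sums of treated SHR lie left of untreated SHR, the atrial one through Nppa, and ventricular, neutrophil and erythroid sums lie right of it.

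**Figure D4:**
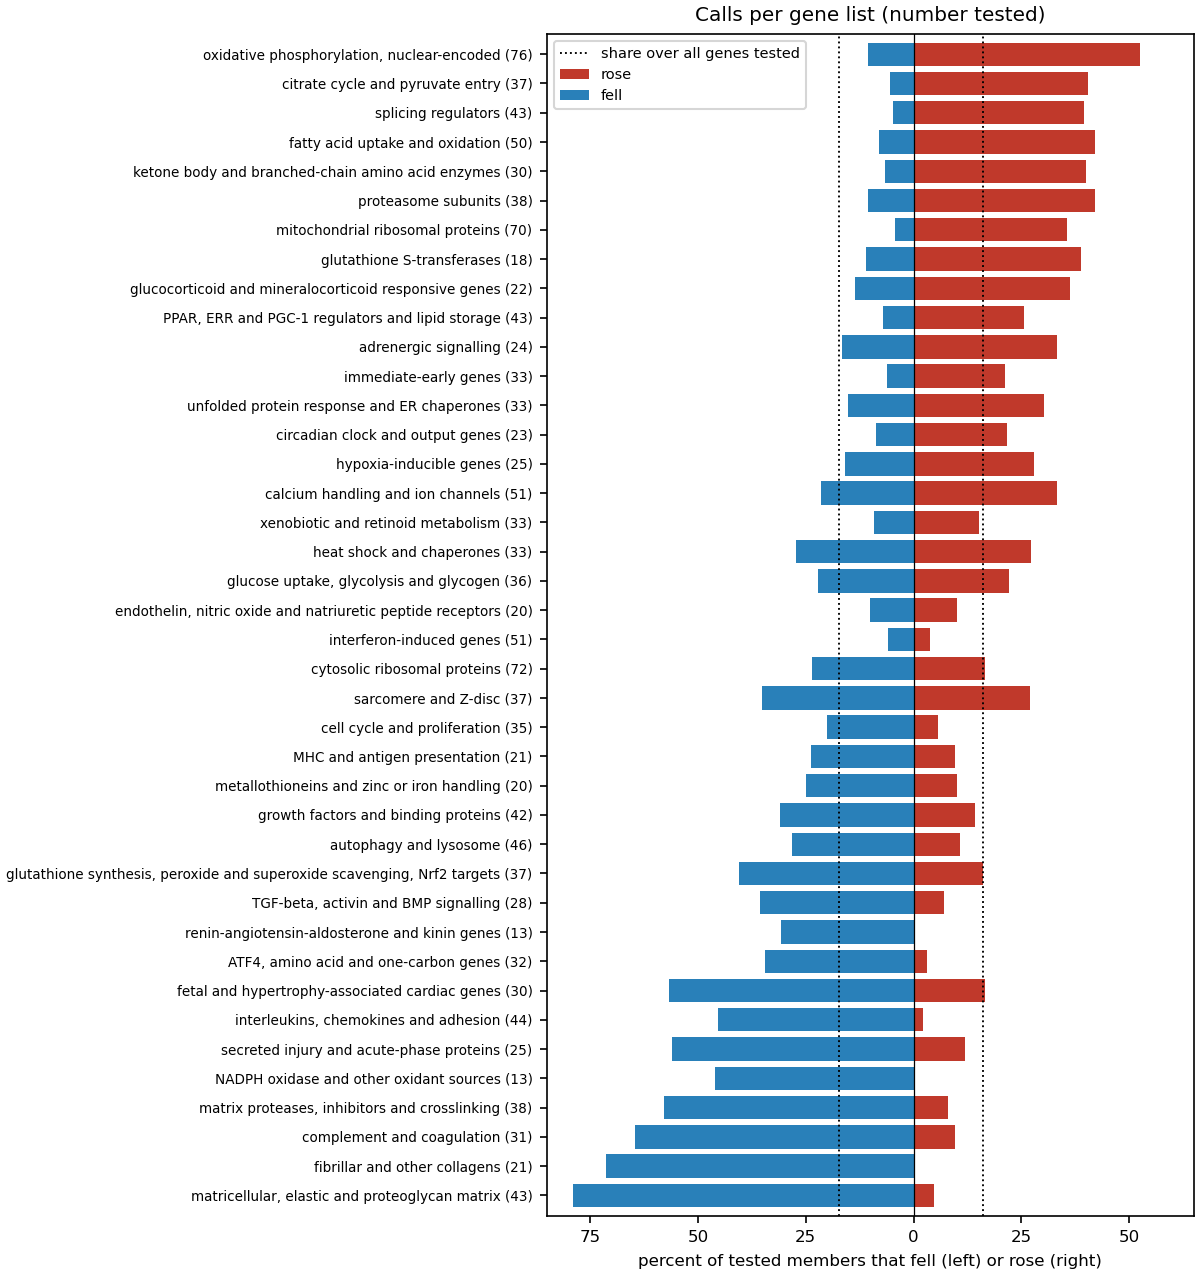
Percent of tested members that fell (left of 0) or rose (right of 0) in treated against untreated SHR, for 40 gene lists with the number tested in brackets; dotted lines mark the shares over all tested genes, 17.4% falling and 16.1% rising. Matrix and complement lists extend furthest to the left, and oxidative phosphorylation furthest to the right.

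The components of the system the drug acts on were mostly at low level in heart tissue. The type 1 receptor gene Agtr1a had 0.705, 1.36 and 0.616 FPKM in treated SHR, against 0.653, 1.21 and 0.582 FPKM in untreated SHR, and was not called (log2 change 0.08, SE 0.331, adjusted p = 0.883). A change would have to be well above that SE to be called, so a moderate change of Agtr1a is not excluded. The second type 1 receptor gene of the rat, Agtr1b, was listed at 0 in all 6 libraries. Of 13 tested renin-angiotensin-aldosterone and kinin genes 4 fell and none rose (median log2 change -0.2), and 2 were higher at limma's unadjusted p under 0.05. Ace, which makes angiotensin II, had 2.30, 2.40 and 2.67 FPKM in treated SHR, against 5.15, 4.63 and 5.16 FPKM in untreated SHR (log2 change -0.89, SE 0.142, adjusted p = 0.00105). Hsd11b1, which regenerates active glucocorticoid, had 9.33, 12.2 and 11.1 FPKM in treated SHR, against 17.6, 17.6 and 17.8 FPKM in untreated SHR (log2 change -0.69, adjusted p = 0.00211). The others that fell were Rcan1, the calcineurin inhibitor given above, and the kinin receptor Bdkrb2. The call of Bdkrb2 was lost without untreated replicate 3 (adjusted p = 0.0544). Rcan1 and Hsd11b1 are not components of the renin-angiotensin or kinin system itself, so the count of 4 is wider than that system. Among 20 tested genes of endothelin, nitric oxide and natriuretic peptide receptors 2 rose and 2 fell. Npr3, the clearance receptor of the natriuretic peptides, had 6.44, 5.02 and 5.71 FPKM in treated SHR, against 12.1, 9.43 and 14.1 FPKM in untreated SHR (log2 change -0.98, adjusted p = 0.00141). Corin, the protease that activates atrial natriuretic peptide, had 38.5, 39.0 and 33.6 FPKM in treated SHR, against 30.1, 29.3 and 30.0 FPKM in untreated SHR (log2 change 0.31, adjusted p = 0.0148), a call lost without treated replicate 2 (adjusted p = 0.056).

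Complement and coagulation fell in 20 of 31 tested members and rose in 3 (median log2 change -0.484). C4b, a component of the classical pathway, had 1.67, 1.48 and 2.46 FPKM in treated SHR, against 8.67, 7.73 and 8.44 FPKM in untreated SHR (log2 change -1.91, SE 0.153, adjusted p = 2.74e-05). C1s, the protease that cleaves it, had 22.6, 27.2 and 29.1 FPKM in treated SHR, against 55.3, 57.2 and 63.2 FPKM in untreated SHR (log2 change -1.15, adjusted p = 0.000121). The recognition subunit C1qb had 27.8, 27.0 and 31.2 FPKM in treated SHR, against 47.0, 42.3 and 51.1 FPKM in untreated SHR (log2 change -0.70, adjusted p = 0.00032). One called rise in this list was F3, tissue factor, at 8.21, 7.99 and 12.6 FPKM in treated SHR, against 4.11, 3.65 and 3.65 FPKM in untreated SHR (log2 change 1.20, adjusted p = 0.000418).

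Of 44 tested interleukin, chemokine and adhesion genes 20 fell and 1, the chemokine Cxcl9, rose (median log2 change -0.536). Ccl7, a monocyte attractant, had 1.39, 1.05 and 2.04 FPKM in treated SHR, against 6.87, 6.60 and 5.25 FPKM in untreated SHR (log2 change -1.78, SE 0.2, adjusted p = 0.000152). Icam1, which binds leukocytes to endothelium, fell by 0.92 on the log2 scale (adjusted p = 0.000581). Secreted injury proteins fell in 14 of 25 tested members and rose in 3. Chi3l1, a chitinase-like protein of macrophages and injured tissue, had 2.34, 1.71 and 2.81 FPKM in treated SHR, against 13.4, 12.0 and 19.0 FPKM in untreated SHR (log2 change -2.45, adjusted p = 2.74e-05). Reg3b, a lectin that attracts macrophages to the injured heart in mice, had 3.45, 2.32 and 3.12 FPKM in treated SHR, against 18.3, 13 and 17.7 FPKM in untreated SHR (log2 change -2.28, adjusted p = 4.17e-05). The rises in this list included the neutrophil genes S100a8 and S100a9, given with the blood markers below.

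Macrophage and monocyte markers moved with these genes. Of 20 tested markers 13 fell and Cd74 rose, and their summed level was 397.1 to 472.1 FPKM in treated SHR, against 608.0 to 675.6 FPKM in untreated SHR and 307.5 to 343.0 FPKM in WKY. The part of macrophage RNA in the immune results was not tested. Interferon-induced genes formed no such group, since 3 of 51 tested members fell and 2 rose (median log2 change -0.003). Of these 5 calls, those of Gbp1, Ifi27 and Sp100 were lost in 1 or more alternative settings, as given in the closing section. For antigen presentation 5 of 21 tested members fell and 2 rose, the falling count being 3 without treated replicate 2 or untreated replicate 2. B2m, the light chain of MHC class I, had 1002, 995 and 858 FPKM in treated SHR, against 543, 583 and 587 FPKM in untreated SHR (log2 change 0.73, SE 0.0844, adjusted p = 0.000173).

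Genes of mitochondrial fuel use rose more often than they fell. Of 50 tested genes of fatty acid uptake and oxidation 21 rose and 4 fell (median log2 change 0.243), against 16.1% and 17.4% of all tested genes. Fabp3, the fatty acid carrier of heart muscle, had 5981, 5823 and 5197 FPKM in treated SHR, against 3526, 3310 and 3276 FPKM in untreated SHR (log2 change 0.75, SE 0.0807, adjusted p = 0.000121). With quantile normalization its log2 change was 0.143 and the call was lost (adjusted p = 0.114). Decr1, an enzyme for unsaturated fatty acids, had 217, 265 and 241 FPKM in treated SHR, against 131, 131 and 120 FPKM in untreated SHR (log2 change 0.91, adjusted p = 0.000175). Gpihbp1, which holds lipoprotein lipase on capillaries, had 25, 39.1 and 33.7 FPKM in treated SHR, against 13.9, 14.6 and 10.1 FPKM in untreated SHR (log2 change 1.30, adjusted p = 0.000326). The fatty acid transporter Cd36 was not called, at 60.6, 46.1 and 24.7 FPKM in treated SHR, against 56.7, 55.4 and 57.0 FPKM in untreated SHR (log2 change -0.45, SE 0.258, adjusted p = 0.204). Treated replicate 1 alone stood above the untreated libraries, and without it Cd36 was called lower (log2 change -0.726, adjusted p = 0.0409). Angptl4, an inhibitor of lipoprotein lipase, fell, at 1.02, 3.33 and 1.03 FPKM in treated SHR, against 6.5, 4.11 and 3.54 FPKM in untreated SHR (log2 change -1.29, adjusted p = 0.0117). Cpt1b, the muscle enzyme that admits long-chain fatty acids to the mitochondrion, fell by 0.27 on the log2 scale (adjusted p = 0.00579). Without untreated replicate 2 the falling members numbered 2.

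Regulators of this programme and of lipid storage rose in 11 of 43 tested members and fell in 3 (median log2 change 0.076). Pnpla2, adipose triglyceride lipase, had 26.9, 14.5 and 35.9 FPKM in treated SHR, against 3.87, 3.68 and 4.51 FPKM in untreated SHR (log2 change 2.45, SE 0.309, adjusted p = 0.000287). WKY hearts held 10.5, 5.76 and 5.06 FPKM. Ppargc1a, the coactivator that drives mitochondrial genes, had 16.8, 20.9 and 24.1 FPKM in treated SHR, against 11.1, 9.40 and 9.73 FPKM in untreated SHR (log2 change 0.98, adjusted p = 0.000349). Pdk4, the kinase that shuts pyruvate out of the citrate cycle, had 263, 497 and 416 FPKM in treated SHR, against 260, 168 and 170 FPKM in untreated SHR (log2 change 0.95, SE 0.222, adjusted p = 0.00799). The lowest treated library was barely above the highest untreated one. Ucp3 was not called (log2 change 0.16, adjusted p = 0.733), and without treated replicate 1 it was called higher (log2 change 0.603, adjusted p = 0.0324).

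Citrate cycle genes rose in 15 of 37 tested members and fell in 2 (median log2 change 0.197). Idh3g, a subunit of isocitrate dehydrogenase, had 454, 444 and 411 FPKM in treated SHR, against 279, 286 and 262 FPKM in untreated SHR (log2 change 0.66, SE 0.0664, adjusted p = 8.04e-05). Pdk2, another pyruvate dehydrogenase kinase, rose by 0.65, Mdh2 by 0.43 and Sdhb by 0.43 on the log2 scale (adjusted p = 5.71e-05, 0.000502 and 0.000584). Of 30 tested genes of ketone body and branched-chain amino acid breakdown 12 rose and 2 fell, with 7 rising without untreated replicate 3. Acat1, which makes and uses acetoacetyl-CoA, had 363, 364 and 341 FPKM in treated SHR, against 239, 257 and 232 FPKM in untreated SHR (log2 change 0.55, adjusted p = 0.000263). Bcat1, the cytosolic transaminase of branched-chain amino acids, had 0.563, 0.516 and 0.978 FPKM in treated SHR, against 3.43, 3.13 and 4.33 FPKM in untreated SHR (log2 change -1.81, adjusted p = 0.00025). Glucose genes showed no common direction, with 8 of 36 rising and 8 falling (median log2 change 0.006), and the rising count was 4 or 5 in 9 of the alternative settings. Within that list the muscle phosphofructokinase Pfkm rose by 0.43 and the platelet-type Pfkp fell by 0.83 on the log2 scale (adjusted p = 0.000996 and 0.00142).

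Nuclear-encoded genes of oxidative phosphorylation rose in 40 of 76 tested members and fell in 8 (median log2 change 0.254). Cox6a2, the muscle form of a cytochrome oxidase subunit, had 7124, 6229 and 5746 FPKM in treated SHR, against 2779, 2607 and 2788 FPKM in untreated SHR (log2 change 1.22, SE 0.0842, adjusted p = 1.92e-05). WKY hearts held 3191, 3023 and 2972 FPKM, below every treated library. Ndufb4, a complex I subunit, had 1456, 1321 and 1243 FPKM in treated SHR, against 751, 766 and 706 FPKM in untreated SHR (log2 change 0.85, adjusted p = 3.11e-05). Uqcr11 of complex III had 266, 270 and 266 FPKM in treated SHR, against 163, 161 and 155 FPKM in untreated SHR (log2 change 0.74, adjusted p = 2.74e-05). Subunits of the same complexes were also among those that fell, such as Ndufa2 of complex I (log2 change -0.69, adjusted p = 0.00397) and Cox5a of cytochrome oxidase (log2 change -0.55, adjusted p = 0.00273). The number that fell depended on scaling, being 14 with quantile and 15 with cyclic loess normalization. Left-out libraries moved the rising count between 30 and 41. Mitochondrial ribosomal proteins, which build the machinery that translates mitochondrial messages, rose in 25 of 70 tested members and fell in 3 (median log2 change 0.225). Among them Mrps17 had 36.4, 35.1 and 31.1 FPKM in treated SHR, against 14.9, 17.6 and 16.7 FPKM in untreated SHR (log2 change 1.04, adjusted p = 6.38e-05).

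Of 15 tested ventricular muscle markers 8 rose and 6 fell, and their summed level, which abundant members such as Tnni3, Myl3 and Fabp3 dominate, was 52465 to 54727 FPKM in treated SHR, against 42192 to 43763 FPKM in untreated SHR and 48135 to 51888 FPKM in WKY. Mb, myoglobin, was not called at 10277, 9750 and 9209 FPKM in treated SHR, against 10451, 9505 and 9094 FPKM in untreated SHR. The part of muscle RNA content in the metabolic results was not tested.

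**Figure D5:**
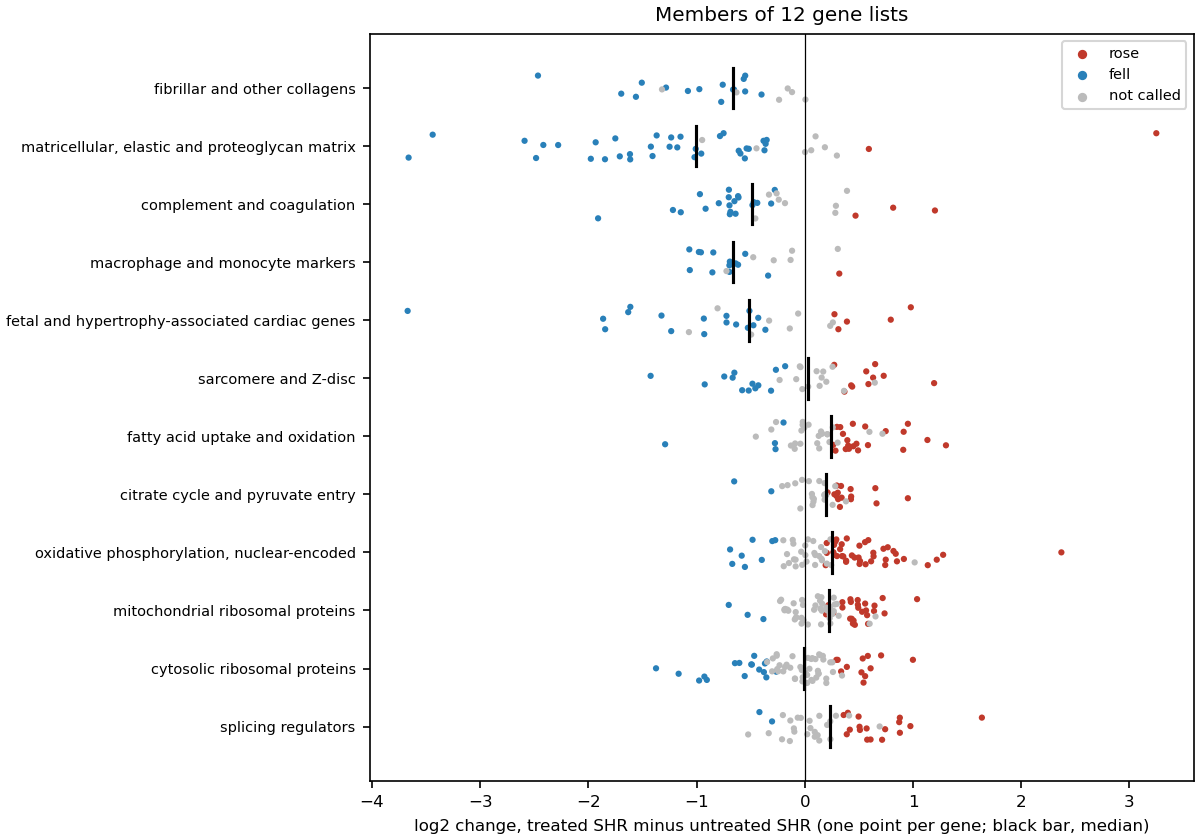
Log2 change of each tested member of 12 gene lists (x axis, treated SHR minus untreated SHR), one point per gene, red for genes that rose, blue for genes that fell, grey for genes not called, with the list median as a black bar. The medians of collagens (-0.663) and matricellular genes (-1.008) lie left of 0 and those of fatty acid (0.243) and oxidative phosphorylation genes (0.254) right of it, while sarcomere genes (0.031) and cytosolic ribosomal proteins (-0.007) lie near 0 with members on both sides.

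Glutathione S-transferases conjugate glutathione to electrophiles. Gstm2, a mu-class member, had 306, 321 and 252 FPKM in treated SHR, against 114, 139 and 125 FPKM in untreated SHR. The groups did not overlap, and Gstm2 rose by 1.21 on the log2 scale (SE 0.0989, adjusted p = 3.06e-05). WKY hearts held 281, 278 and 261 FPKM, within the range of treated SHR. Gstm1 had 26.7, 28.3 and 25.2 FPKM in treated SHR, against 11.4, 11.9 and 10.2 FPKM in untreated SHR (log2 change 1.23, adjusted p = 2.26e-05). Unlike for Gstm2, WKY hearts held 9.80, 8.55 and 9.92 FPKM of Gstm1, below both SHR groups. Gstm7 had 55.6, 50.1 and 37.0 FPKM in treated SHR, against 21.3, 21.0 and 16.2 FPKM in untreated SHR (log2 change 1.25, adjusted p = 0.000175). Mu-class genes are similar in sequence and reads may be shared among them, so the level of each is uncertain. Gstm3 of the same class went the other way (log2 change -0.72, adjusted p = 0.00232). Over the family 7 of 18 tested members rose and 2 fell (median log2 change -0.057), and 4 rose without treated replicate 2 or without untreated replicate 3.

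Other antioxidant genes did not follow the mu class. Of 37 tested genes of glutathione synthesis, peroxide and superoxide scavenging and Nrf2 targets 15 fell and 6 rose (median log2 change -0.139). Hmox1, the heme-degrading oxygenase, had 125, 170 and 116 FPKM in treated SHR, against 66.3, 56.9 and 52.7 FPKM in untreated SHR (log2 change 1.20, SE 0.162, adjusted p = 0.000399). Srxn1, which repairs peroxiredoxins, rose by 0.71 on the log2 scale (adjusted p = 0.0018). Gpx3, the secreted glutathione peroxidase, had 127, 129 and 143 FPKM in treated SHR, against 217, 194 and 238 FPKM in untreated SHR (log2 change -0.70, adjusted p = 0.000314). Nqo1, a standard Nrf2 target, was not called, at 15.6, 14.5 and 12.5 FPKM in treated SHR, against 12.8, 17.3 and 12.8 FPKM in untreated SHR. Enzymes that produce oxidants fell in 6 of 13 tested members and none rose (median log2 change -0.426), and 1 was higher at limma's unadjusted p under 0.05. Cybb, the catalytic subunit of the phagocyte NADPH oxidase, had 2.89, 2.89 and 3.27 FPKM in treated SHR, against 6.69, 8.68 and 7.53 FPKM in untreated SHR (log2 change -1.20, adjusted p = 9.53e-05), moving with the macrophage markers above. Xdh, xanthine dehydrogenase, had 11.7, 13.9 and 13.3 FPKM in treated SHR, against 21.9, 21.6 and 26.7 FPKM in untreated SHR (log2 change -0.83, adjusted p = 0.000665).

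Cyp2e1, a cytochrome P450 that oxidises small molecules, had the second largest called rise. It had 23.5, 45.1 and 19.4 FPKM in treated SHR, against 2.97, 3.34 and 1.69 FPKM in untreated SHR (log2 change 3.18, SE 0.321, adjusted p = 8.27e-05). WKY hearts held 58.6, 39.5 and 30.9 FPKM, so the untreated SHR were the low group. Its list of xenobiotic and retinoid genes held 5 rises and 3 falls among 33 tested members (median log2 change -0.003). Mt1, a metallothionein that buffers zinc, had 332, 402 and 247 FPKM in treated SHR, against 133, 132 and 139 FPKM in untreated SHR (log2 change 1.25, SE 0.179, adjusted p = 0.000552), and 66.6, 50.5 and 42.2 FPKM in WKY. Of its list of 20 tested metal-handling genes 2 rose and 5 fell, the falling count being 2 without treated replicate 1, untreated replicate 1 or untreated replicate 3. Cp, ceruloplasmin, fell by 1.29 and Tf, transferrin, by 0.91 on the log2 scale (adjusted p = 6.57e-05 and 0.000385).

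Genes that glucocorticoids and mineralocorticoids induce rose in 8 of 22 tested members and fell in 3 (median log2 change 0.383). Tgm2, the member with the smallest p, fell. It had 53.6, 52.5 and 62.5 FPKM in treated SHR, against 140, 135 and 187 FPKM in untreated SHR (log2 change -1.43, adjusted p = 3.17e-05). Cebpb, a transcription factor of stress and metabolism, had 66.8, 76.4 and 61.5 FPKM in treated SHR, against 22.1, 25.3 and 26.8 FPKM in untreated SHR (log2 change 1.45, SE 0.13, adjusted p = 4.67e-05). Pik3r1, a regulatory subunit of PI3-kinase, had 22.9, 20.4 and 25.4 FPKM in treated SHR, against 10.6, 8.54 and 11.1 FPKM in untreated SHR (log2 change 1.15, adjusted p = 0.000263). Fkbp5, a standard glucocorticoid target, was not called, at 9.03, 9.24 and 15.7 FPKM in treated SHR, against 10.2, 12.1 and 13 FPKM in untreated SHR. Clock genes rose in 5 of 23 tested members and fell in 2 (median log2 change 0.105), against 16.1% and 17.4% of all tested genes. Usp2, a rhythmic deubiquitinase and the gene with the lowest adjusted p of those named, had 47.5, 47.7 and 46.1 FPKM in treated SHR, against 18.4, 18.1 and 17.0 FPKM in untreated SHR (log2 change 1.38, SE 0.0654, adjusted p = 5.84e-06). Per1, a repressor of the clock that glucocorticoids also induce, had 11.4, 11.2 and 6.34 FPKM in treated SHR, against 2.75, 4.02 and 3.07 FPKM in untreated SHR (log2 change 1.40, adjusted p = 0.00115). Arntl, an activator of the clock, was not called (log2 change -0.67, adjusted p = 0.0553). The groups overlapped for Arntl, at 4.29, 3.38 and 4.71 FPKM in treated SHR, against 4.23, 7.50 and 9.88 FPKM in untreated SHR. It was called lower with no rescaling, with array weights, with the replicate block and without untreated replicate 1 (adjusted p = 0.0428, 0.0296, 0.0292 and 0.0029). Dbp, a clock output, was called (log2 change 1.02, adjusted p = 0.0192) although the groups overlapped at 50.1, 38.6 and 21.5 FPKM in treated SHR, against 18.9, 22.3 and 11.4 FPKM in untreated SHR. The sources used here give no time of day for tissue collection, and its part in these values was not tested.

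Immediate-early genes, which respond within minutes to many stimuli including handling of tissue, rose in 7 of 33 tested members and fell in 2. Their median log2 change was 0.104, and over all tested genes 16.1% rose and 17.4% fell. Nr4a1, an orphan nuclear receptor, had 17.7, 20.4 and 4.51 FPKM in treated SHR, against 1.05, 3.76 and 2.55 FPKM in untreated SHR (log2 change 2.19, SE 0.521, adjusted p = 0.00893). Nr4a3 rose by 1.48 on the log2 scale (adjusted p = 0.00819), and Fos and Egr1 were not called. The 2 that fell were Gadd45a (log2 change -0.59, adjusted p = 0.000778) and Ier5 (log2 change -0.77, adjusted p = 0.00324). The rising count was 3 without untreated replicate 2 and 4 without treated replicate 1, treated replicate 2 or untreated replicate 1.

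Erythroid transcripts and 2 neutrophil genes were higher in treated hearts. The summed level of erythroid markers was 2295, 882 and 963 FPKM in treated SHR, against 357, 322 and 187 FPKM in untreated SHR and 316, 607 and 434 FPKM in WKY. Of 9 tested markers 7 rose and 1 fell, and without untreated replicate 3 the number rising was 4. Hba1, an alpha globin, had 1497, 612 and 620 FPKM in treated SHR, against 187, 169 and 98.9 FPKM in untreated SHR (log2 change 2.5, SE 0.373, adjusted p = 0.000697). Treated replicate 1 held more than any other library. Hba2 had 494, 158 and 193 FPKM in treated SHR, against 73.2, 62.7 and 34.4 FPKM in untreated SHR (log2 change 2.18, adjusted p = 0.00201). The copy named Hba-a1 was listed at 0 in all treated libraries and at 17.6, 3.53 and 3.09 FPKM in untreated SHR. The alpha globin genes are near-identical copies, so reads may be split among them and the level of each is uncertain. Alas2, which makes heme in red cell precursors, had 2.26, 0.831 and 1.05 FPKM in treated SHR, against 0.0529, 0.603 and 0.137 FPKM in untreated SHR (log2 change 1.29, adjusted p = 0.0212). Among neutrophil markers S100a8 had 6.62, 9.10 and 5.54 FPKM in treated SHR, against 1.61, 2.82 and 1.47 FPKM in untreated SHR (log2 change 1.63, adjusted p = 0.000314). S100a9 rose by 1.32 on the log2 scale (adjusted p = 0.00548), and the granule gene Mpo was listed at 0 in all 6 libraries. Platelet markers summed to 13.9 to 22.7 FPKM in treated SHR, against 19.4 to 23.6 FPKM in untreated SHR, with 1 of 4 tested rising and 1 falling. T and NK cell markers summed to 16 to 19.9 FPKM in treated SHR, against 17.0 to 20.2 FPKM in untreated SHR, with 1 of 7 tested rising and 1 falling. The part of blood left in the tissue in other results was not tested.

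Splicing regulators rose in 17 of 43 tested members and fell in 2 (median log2 change 0.235). Rbfox1, a muscle and brain splicing factor, had 31.8, 33.3 and 27.0 FPKM in treated SHR, against 10.7, 10.8 and 7.39 FPKM in untreated SHR (log2 change 1.64, SE 0.134, adjusted p = 3.06e-05). Hnrnpa2b1, an abundant RNA-binding protein, had 357, 371 and 381 FPKM in treated SHR, against 214, 193 and 197 FPKM in untreated SHR (log2 change 0.88, adjusted p = 2.26e-05). WKY hearts held 17.0, 16.8 and 16.6 FPKM of Rbfox1 and 205, 222 and 223 FPKM of Hnrnpa2b1, below the treated libraries in both. Cytosolic ribosomal proteins had no common direction, with 12 of 72 rising and 17 falling (median log2 change -0.007), and the falling count was 28 with quantile and 26 with cyclic loess normalization. Rpl3 fell by 1.17 and Rps26 rose by 1.00 on the log2 scale (adjusted p = 2.26e-05 and 2.74e-05). Ribosomal protein genes have many processed copies in the genome, so these levels are uncertain.

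Protein folding and turnover gave mixed results. Proteasome subunits rose in 16 of 38 tested members and fell in 4 (median log2 change 0.161), led by Psmb7, a catalytic subunit, at 210, 189 and 198 FPKM in treated SHR, against 114, 109 and 102 FPKM in untreated SHR (log2 change 0.87, SE 0.0768, adjusted p = 4.17e-05). Lysosome and autophagy genes fell in 13 of 46 and rose in 5 (median log2 change -0.166). The cathepsins Ctss, Ctsz and Ctsa fell by 1.12, 0.74 and 0.66 on the log2 scale (adjusted p = 0.000108, 0.000223 and 9.97e-05). Among heat shock genes 9 of 33 rose and 9 fell. Hspe1, the mitochondrial co-chaperonin, had 592, 514 and 502 FPKM in treated SHR, against 279, 276 and 291 FPKM in untreated SHR (log2 change 0.92, adjusted p = 4.17e-05). Its partner Hspd1 rose by 0.41, while Hspb8, a small heat shock protein of the Z-disc, fell by 0.62 on the log2 scale (adjusted p = 0.000694 and 4.67e-05). Genes of the unfolded protein response rose in 10 of 33 and fell in 5, with 6 rising without treated replicate 2 or untreated replicate 2. The falling count was 3 without treated replicate 2 and 2 without untreated replicate 3.

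ATF4-linked genes of amino acid and one-carbon metabolism fell in 11 of 32 tested members and rose in 1, Cebpb (median log2 change -0.195). Mthfd2, a mitochondrial folate enzyme, had 1.03, 0.708 and 1.25 FPKM in treated SHR, against 2.09, 3.19 and 3.61 FPKM in untreated SHR (log2 change -1.20, SE 0.218, adjusted p = 0.00217). Asns, asparagine synthetase, had 0.772, 1.02 and 0.706 FPKM in treated SHR, against 1.59, 1.95 and 1.79 FPKM in untreated SHR (log2 change -0.78, adjusted p = 0.00337). Of 35 tested cell cycle genes 7 fell and 2 rose (median log2 change -0.155). The cell cycle inhibitor Cdkn1b had 37.2, 45.2 and 41.5 FPKM in treated SHR, against 22.9, 19.1 and 19.6 FPKM in untreated SHR (log2 change 0.99, adjusted p = 6.02e-05). The cyclin Ccnd2 had 54.4, 49.1 and 58.9 FPKM in treated SHR, against 92.9, 97.9 and 105 FPKM in untreated SHR (log2 change -0.86, adjusted p = 0.000507). The mitotic gene Mki67 was not called. Among hypoxia-inducible genes 7 of 25 rose and 4 fell, and the falling count was 2 without treated replicate 2 or untreated replicate 2 and 7 with quantile normalization.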

How the data were processed

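RNA of rat heart was sequenced in 9 libraries, 3 per group. The mirVana kit was used for RNA and a TruSeq stranded mRNA kit for libraries, per the labels' protocols. The authors deposited 1 table of FPKM values per gene and library. The submitters' processing notes name build Rnor_6.0 and the tools HISAT2, Trimmomatic, HTSeq, Cufflinks and DESeq, while versions, roles and gene models are unstated in the sources used here. Low values did not fall on common steps between libraries (at best 25.3% within 3% of one ratio), so depth is unknown.

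Each library was divided by a median-of-ratios factor (0.965 to 1.04) from 9194 genes at 1 FPKM or more throughout. From 22601 genes, the fit kept those reaching 0.5 in 3 or more libraries. In R 4.3.3 with limma 3.58.1, log2(FPKM + 0.5) was fitted with 1 mean per group over all 9 libraries (6 residual degrees of freedom, variance trend). Two-sided p-values were adjusted over all tested genes (Benjamini-Hochberg). The fit was tested on simulated data. Promoters were matched by gene identifier.

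The members and the 60 gene lists were chosen with earlier results of these data known. Named genes are up to 12 with the largest rise and fall (reaching a group mean of 1 FPKM, without overlap), up to 4 of each group list by p, and a panel of 24, of which 1 is not reported here. Other list members, such as Ryr2, Pln, Mb, Tcf21, F3 and Alas2, were named after their values were seen. Replicate numbers did not pair libraries. Alternatives were scaling, pseudocount, filter, moderation, array weights, only 6 libraries, replicate block, span, a minimum change and left-out libraries.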

Additional observations from a re-analysis of the deposited data

How the results depend on the processing

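The 3924 calls became 3840 to 4046 under other scalings, pseudocounts, robust moderation, array weights or a removed span trend, 3670 without the filter on low values and 3559 with only the 6 libraries. Testing whether each log2 change exceeded 0.5 in size, in place of whether it differed from 0, left 270 calls, 112 rising and 158 falling. This is stricter than keeping the calls whose estimated change is above 0.5. Under it 93 of 180 named genes lost their call, Myh6, Myh7 and Pdk4 among them. Leaving out 1 library gave 2860 to 3838 calls, 1398 to 1854 rising and 1462 to 1984 falling. Numbers shared by the groups did not pair libraries (correlations of deviations -0.01, 0.01 and 0.08; only replicate 3 correlated best with its own number), and a replicate block gave 3851 calls, 3665 of them shared. Among uncalled genes the sign turned for Atp2a2 (0.018 with the span trend removed, -0.067 to 0.033 without 1 library), Agtr1a (-0.151 to 0.279 without 1 library), Ucp3 (-0.126 to 0.603 without 1 library) and Nqo1 (0 with a pseudocount of 0.1, 0.002 with only the 6 libraries, 0.008 with the span trend removed, -0.074 to 0.139 without 1 library). In the other settings, besides Fabp3, Bdkrb2 and Corin given above, calls were lost for Gbp1 (adjusted p up to 0.0542), Ifi27 (up to 0.0862), Sp100 (up to 0.156), RT1-Da (0.0585 without treated replicate 2) and Dbp (up to 0.0731); the cause was not tested. Depth is unknown, so no detection limit can be given for genes listed at 0.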

Other observations

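Some single genes stood apart from others of their complex or family. Col1a2, whose product pairs with that of Col1a1 in type I collagen, had 1.22, 7.67 and 3.07 FPKM in treated SHR, against 10.1, 1.74 and 7.36 FPKM in untreated SHR. It spread widely within both groups and was not called (log2 change -0.63, SE 0.6, adjusted p = 0.449), where Col1a1 was tight. Ndufa12, a complex I subunit, had 325, 271 and 263 FPKM in treated SHR, against 41.4, 62.6 and 63.1 FPKM in untreated SHR (log2 change 2.37, adjusted p = 4.17e-05), while other complex I subunits moved by less than 1 log2 unit. Rbm39, a splicing factor, had 2.71, 4.11 and 1.67 FPKM in treated SHR, against 0.211, 0.133 and 0.138 FPKM in untreated SHR (log2 change 2.27, adjusted p = 0.000102). Hnrnpab, an RNA-binding protein, had 45.4, 11.4 and 7.84 FPKM in treated SHR, against 0.956, 6.46 and 0.750 FPKM in untreated SHR (log2 change 2.83, adjusted p = 0.0101).

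Avp, the gene of vasopressin, had 2.69, 0.898 and 1.17 FPKM in treated SHR and was listed at 0 in all 3 untreated SHR libraries (adjusted p = 0.0011). Hsd3b3, a steroid dehydrogenase, was listed at 0 in all treated libraries and had 3, 2.25 and 1.56 FPKM in untreated SHR (adjusted p = 0.00436). WKY hearts held 0.0545, 0 and 2.06 FPKM of Hsd3b3, so it varied from 0 to the untreated SHR level within that group. Ncam1, a neural cell adhesion molecule and a member of the nerve marker list, had 1.35, 1.09 and 1.5 FPKM in treated SHR, against 8.36, 8.66 and 14.4 FPKM in untreated SHR and 1.16, 1.52 and 1.43 FPKM in WKY (log2 change -2.56, adjusted p = 2.26e-05). Gpm6a, a neuronal membrane glycoprotein, had 5.21, 5.6 and 4.73 FPKM in treated SHR, against 2.28, 0.935 and 0.858 FPKM in untreated SHR (log2 change 1.69, adjusted p = 0.000763).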
